A study of Mus musculus with 6 samples.

Results

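Receptors, ligands and "don't eat me" proteins of red cell clearance and efferocytosis were read in red pulp macrophages of Bach2 knockout and wild-type mice. The group held 10 genes, Mertk, Axl, Tyro3, Gas6, Pros1, Timd4, Mfge8, Sirpa, Cd47 and Itgb5, and was taken as every array probe whose RefSeq accession belongs to one of them. That gave 10 of the 20018 genes named on the array and 12 of its 55681 gene probes, with 2 probes each for Tyro3 and Cd47. Macrophages were sorted by flow cytometry from the spleens of 3 mice with the Bach2 knockout and 3 wild-type mice, all C57BL/6 and 8 to 9 weeks old. Each mouse gave 1 single-colour Agilent array. The knockout mice were all male, and wild-type replicate 3 was the only female. The sources used here do not state the sort gate, which part of Bach2 is deleted or in which cells.

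Red pulp macrophages engulf aged red cells and recycle their iron. Cells are marked for uptake by phosphatidylserine on their surface, which is read directly by TIM-4 (Timd4) or through soluble bridges. Gas6 and protein S (Pros1) bridge phosphatidylserine to the TAM receptor kinases Tyro3, Axl and Mertk, and Mfge8 bridges it to the integrins that contain αv with β3 or β5 (Itgb5). CD47 on a healthy red cell binds SIRPα (Sirpa) on the macrophage and inhibits uptake.

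The results turn most on the bridging ligands Gas6 and Pros1, so the 250 bases before their annotated starts are shown (RefSeq, GRCm38.p6), beside those of Timd4. Capitals mark GC boxes, the hexamer GGGCGG read on either strand.
Gas6, chr8:13494536-13494785, minus strand: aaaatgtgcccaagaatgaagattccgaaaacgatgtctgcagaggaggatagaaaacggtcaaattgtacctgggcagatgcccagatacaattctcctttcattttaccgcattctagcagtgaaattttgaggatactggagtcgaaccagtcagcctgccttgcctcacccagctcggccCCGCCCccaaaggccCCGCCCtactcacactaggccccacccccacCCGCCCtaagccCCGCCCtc
Pros1, chr16:62854057-62854306, plus strand: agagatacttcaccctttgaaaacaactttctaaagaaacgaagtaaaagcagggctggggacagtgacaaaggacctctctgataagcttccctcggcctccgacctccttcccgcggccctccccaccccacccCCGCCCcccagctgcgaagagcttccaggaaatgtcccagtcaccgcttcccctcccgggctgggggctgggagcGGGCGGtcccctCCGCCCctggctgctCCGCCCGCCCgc
Timd4, chr11:46810549-46810798, plus strand: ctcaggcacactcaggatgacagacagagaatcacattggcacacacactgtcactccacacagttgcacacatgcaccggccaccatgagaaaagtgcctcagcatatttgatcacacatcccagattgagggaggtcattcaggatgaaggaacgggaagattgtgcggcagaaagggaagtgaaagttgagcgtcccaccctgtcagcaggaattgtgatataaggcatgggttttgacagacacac
The promoter table, whose windows add 50 bases after the start, held 10 windows for 9 of the genes, with 2 for Cd47 and none matched for Sirpa. GC boxes occurred in 9 of these 10 windows, against 35.7% of all 32851 promoter windows. The Cd47 windows overlap almost wholly and hold the same GC boxes, so they are not separate counts. Timd4 was the gene without one, and its window was 50.7% G and C, against a median of 52.7% over all promoter windows. Sequences of the kind bound by BACH, Maf and AP-1 proteins were searched on both strands as well. None of the 10 windows held TGANTCA, which occurred in 7.81% of all promoter windows, or TGACNNNGC, which occurred in 12.4%. A single stretch can match both motifs.

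Levels are log2 of the processed signal minus the array's 75th percentile, so that 1 unit is a factor of 2 within a probe, and levels of different probes are not comparable. The 75th percentile was highest on knockout replicate 3, at 3172.1, and lowest on wild-type replicate 3, at 865.2, and between 36.3% and 50.6% of probes were well above background on an array. The 6 arrays shared 1 slide, with knockout mice in row 2 and wild-type mice in row 1. Genotype and row therefore cannot be told apart. A knockout and a wild-type mouse of equal replicate number shared each of the 3 columns of the slide. The mice of column 3, and no others, also share the tag P6 in their labels, whose meaning is not stated. Column 3 and this tag therefore cannot be told apart. The spike-in probe E1A_r60_a107 had signals of 3282.6, 11650.1 and 1156.1 on the knockout arrays and 5816.3, 20254.6 and 866.0 on the wild-type arrays of columns 1, 2 and 3. Having 3 mice a genotype limits how precise any value can be. The brighter Bach2 probe read -2.42, -3.90 and -1.41 in the knockout mice and -1.09, -0.21 and -1.53 in the wild-type mice, and a second Bach2 probe was well above background on no array. Knockout replicate 3 overlapped the wild-type range, and since the probe's place relative to the deletion is unknown it does not check the labels. Of 9 markers of red pulp macrophages, 8 were well above background on all 6 arrays. The exception was Cd163, the hemoglobin scavenger receptor, well above background on 1 of 3 knockout and 3 of 3 wild-type arrays.

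No probe of the 10 genes differed between the genotypes by the test. Of the 12 probes, 0 passed an adjusted p of 0.05 in limma with Benjamini-Hochberg adjustment over all probes (background 0%), and 0 had an unadjusted p under 0.05, against 0.884% of all probes tested. The adjusted p was 1 for each of the 12, and the standard errors of the differences lay between 0.62 and 0.80. For each of the 12 probes the levels of the genotypes overlapped, where 2.58% of all probes did not overlap. The difference, knockout minus wild type, was below 0 for 8 probes and above 0 for 4, with a median of -0.29. Over all probes the share below 0 was 43.8% and the median 0.09. Among the 23065 probes well above background on at least 3 arrays these were 61.5% and -0.12. With mice as bulk samples, fewer cells that express a gene and less of its RNA per cell cannot be told apart.

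**Figure D1:**
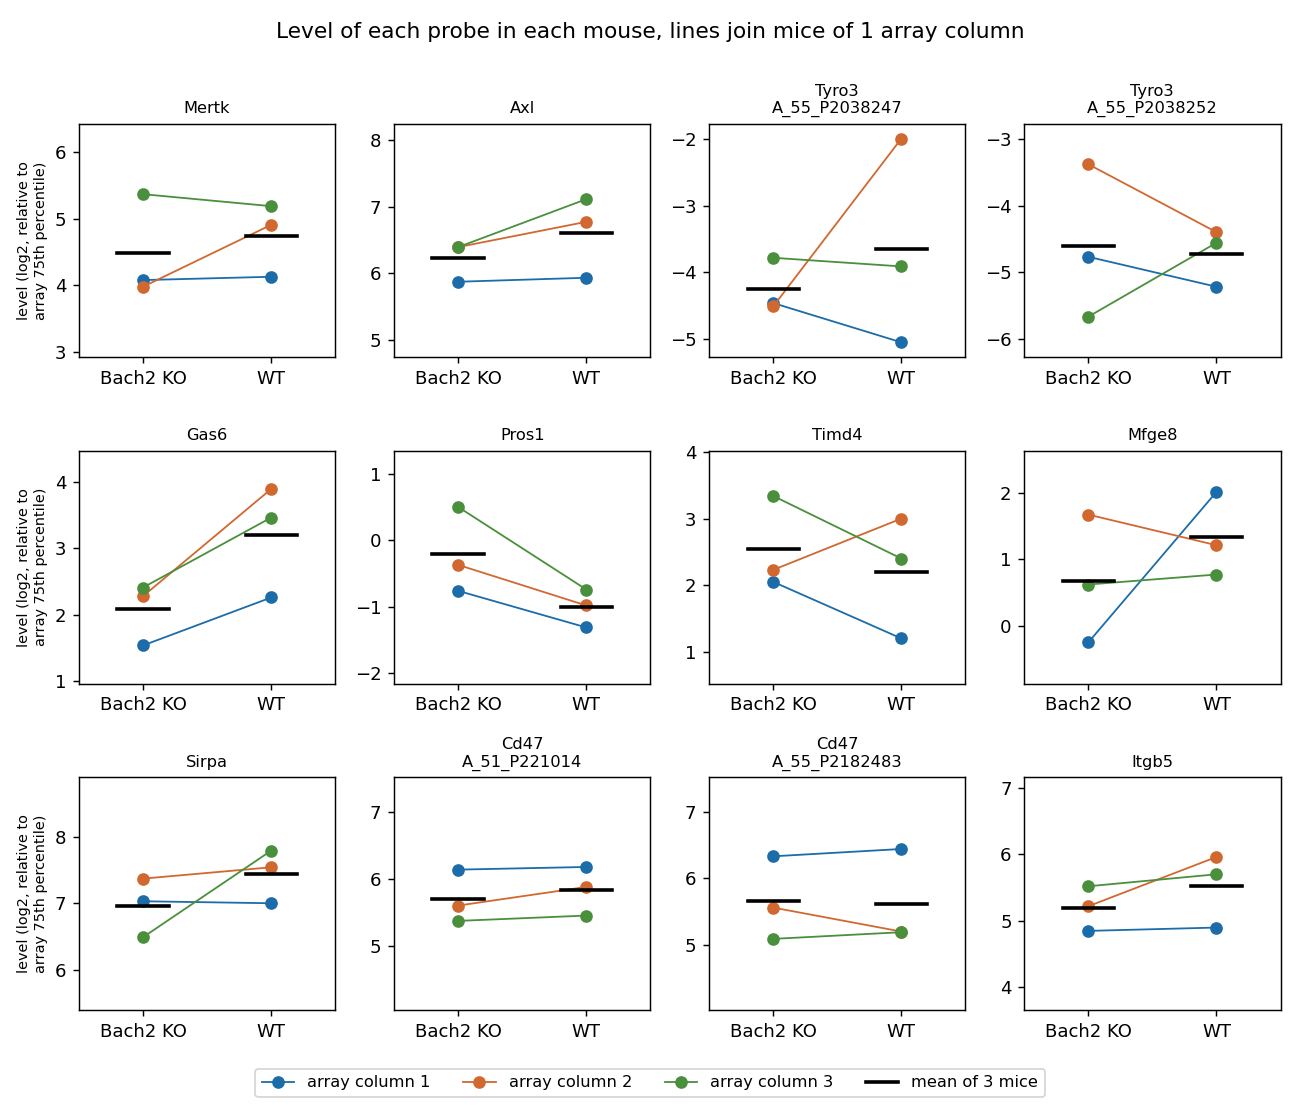
Level of each of the 12 probes in each mouse (vertical axis, log2 relative to the array's 75th percentile, each panel with its own range), knockout left of wild type. Points are mice, lines join the mice of 1 array column, and black bars are means of 3 mice. Gas6, Axl, Itgb5 and Cd47 probe A_51_P221014 lie lower and Pros1 higher in the knockout mouse of every column. The overall ranges of the genotypes overlap in each panel.

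The TAM ligands had the largest differences among the 10 probes well above background on all arrays, and they ran in opposite directions. Gas6, a vitamin K-dependent ligand of all 3 TAM receptors, read 1.54, 2.28 and 2.41 in the knockout mice and 2.26, 3.89 and 3.46 in the wild-type mice. The 3 knockout levels lay below those of wild-type replicates 2 and 3, and wild-type replicate 1 lay within the knockout range. The mean was 2.08 ± 0.47 (SD, n = 3) in knockout and 3.20 ± 0.85 (SD, n = 3) in wild type. The difference was -1.13 ± 0.68 (SE), 2.18-fold higher in wild type, with a 95% interval of -2.61 to 0.35 (limma adjusted p = 1; exact two-sided permutation p = 0.3, where 3 against 3 mice cannot go below 0.1).

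Pros1, which encodes protein S, a ligand of Tyro3 and Mertk and an anticoagulant cofactor, read -0.76, -0.37 and 0.50 in the knockout mice and -1.31, -0.98 and -0.74 in the wild-type mice. The groups overlapped by a margin of 0.02, between knockout replicate 1 and wild-type replicate 3. Mean levels were -0.21 ± 0.65 (SD, n = 3) in knockout and -1.01 ± 0.29 (SD, n = 3) in wild type. The difference was 0.80 ± 0.64 (SE), 1.74-fold higher in knockout, with a 95% interval of -0.60 to 2.19 (limma adjusted p = 1; exact two-sided permutation p = 0.2). Without knockout replicate 3, the highest of the 6 arrays, it was 0.44. Markers of T and NK cells, as a set, were higher in knockout, as Pros1 was. The summed scaled signals of 10 such genes, 9 of them well above background on all arrays, were 93.6 to 290.0 in knockout and 33.6 to 57.9 in wild type. Gzma had the highest scaled signal of them on every array. The mean of their levels, each centred over the 6 arrays, was 0.32, 1.34 and 0.11 in knockout and -0.36, -0.42 and -0.99 in wild type. Levels of Lck, Zap70, Gzma and Gzmb did not overlap between the genotypes, and those of the other genes did. Within a genotype the order of the mice differed from that of Pros1, which was highest in knockout replicate 3, where this mean was the lowest of the knockout mice. Their part in the Pros1 values was not tested.

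Within array columns 1, 2 and 3 the Gas6 difference was -0.72, -1.61 and -1.05. The corresponding values for Pros1 were 0.55, 0.61 and 1.24. Both genes thus had 1 sign in all 3 columns, which 5 of the 12 probes showed (Axl, Gas6, Pros1, Itgb5 and Cd47 probe A_51_P221014) and 14.1% of all probes. Both were singled out for large mean differences on these same arrays, so a shared sign is not separate evidence of a difference. After quantile normalization, which sets the whole distribution of each array equal, 2 of the 12 had 1 sign in all 3 columns, those of Gas6 and Pros1, against 19% of all probes. There Gas6 differed by -0.66, -1.31 and -1.19 and Pros1 by 0.58, 0.49 and 1.28. In the list of markers of stromal, follicular dendritic and endothelial cells, Cr2 ran the same way as Gas6. Cr2, which B cells also express, read 0.81, 1.24 and 1.65 in knockout and 1.90, 3.18 and 2.40 in wild type. Cr2 was the only gene of this list whose levels did not overlap between the genotypes. The sum of the scaled signals of the 9 genes, 5.7 to 8.6 in knockout and 9.39 to 14.1 in wild type, ranked the mice as Cr2 did. The mean of their centred levels overlapped, at -0.55, 0.18 and -0.09 in knockout and -0.11, 0.23 and 0.33 in wild type. Of these genes 7 were well above background on at least 1 array, and the collagens Col1a1 and Col3a1 on none. Summed scaled signals of 4 B cell markers overlapped, at 100 to 135 in knockout and 67.4 to 144 in wild type. The part of any of these cells in the Gas6 values was not tested.

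For the TAM receptors Mertk and Axl, the genotype means lay closer together than the lowest and highest means of the array columns. In columns 1, 2 and 3 these means were 4.10, 4.45 and 5.28 for Mertk and 5.90, 6.58 and 6.75 for Axl. Means of pairs vary more than means of 3 mice, and no test of the columns was run. Mertk, the TAM kinase that macrophages use for uptake of apoptotic cells, read 4.08, 3.98 and 5.37 in the knockout mice and 4.13, 4.91 and 5.19 in the wild-type mice. Both mice of column 3 were high and both mice of column 1 were low, and the ranges of the genotypes nearly coincided. The difference was -0.27 ± 0.67 (SE), with a 95% interval of -1.74 to 1.21, and -0.02 after quantile normalization.

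Axl, a TAM kinase that binds Gas6, read 5.87, 6.39 and 6.39 in the knockout mice and 5.93, 6.77 and 7.11 in the wild-type mice. Wild-type replicates 2 and 3 were above every knockout mouse, and wild-type replicate 1 stood beside knockout replicate 1 at the low end. The difference was -0.38 ± 0.63 (SE), with a 95% interval of -1.77 to 1.0, and -0.0031 after quantile normalization. Tyro3, the remaining TAM kinase, was well above background by both probes on 0 of 3 knockout arrays and 1 of 3 wild-type arrays, that of replicate 2. Probe A_55_P2038247 read -4.46, -4.51 and -3.78 in the knockout mice and -5.05, -1.99 and -3.91 in the wild-type mice. Probe A_55_P2038252 read -4.77, -3.38 and -5.67 in the knockout mice and -5.22, -4.40 and -4.56 in the wild-type mice. With most of these values near background no fold is given. The first probe's difference was -0.60 ± 0.80 (SE), and 0.23 without wild-type replicate 2.

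Timd4, the macrophage receptor that binds phosphatidylserine directly, read 2.05, 2.23 and 3.34 in the knockout mice and 1.20, 3.00 and 2.40 in the wild-type mice. The highest level was in knockout replicate 3 and the lowest in wild-type replicate 1. The difference was 0.34 ± 0.71 (SE), with a 95% interval of -1.21 to 1.89, and it ran below 0 in column 2 (-0.77) and above 0 in columns 1 (0.85) and 3 (0.94). It was -0.06 without knockout replicate 3 and -0.16 without wild-type replicate 1.

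Mfge8, the bridge from phosphatidylserine to integrins, read -0.25, 1.67 and 0.62 in the knockout mice and 2.01, 1.21 and 0.77 in the wild-type mice. Its range over the 6 arrays, 2.26, was the widest among the probes measured well above background on all arrays after that of Gas6 (2.35). The extremes, knockout replicate 1 and wild-type replicate 1, shared column 1, where the genotypes differed by -2.26, against 0.46 in column 2 and -0.15 in column 3. The mean difference of -0.65 ± 0.71 (SE), with a 95% interval of -2.20 to 0.90, therefore rested on that column. Itgb5, the integrin β5 subunit, read 4.85, 5.22 and 5.52 in the knockout mice and 4.90, 5.96 and 5.70 in the wild-type mice. The low value of each genotype was again the mouse of column 1. Its difference was -0.32 ± 0.63 (SE), with a 95% interval of -1.70 to 1.06.

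**Figure D2:**
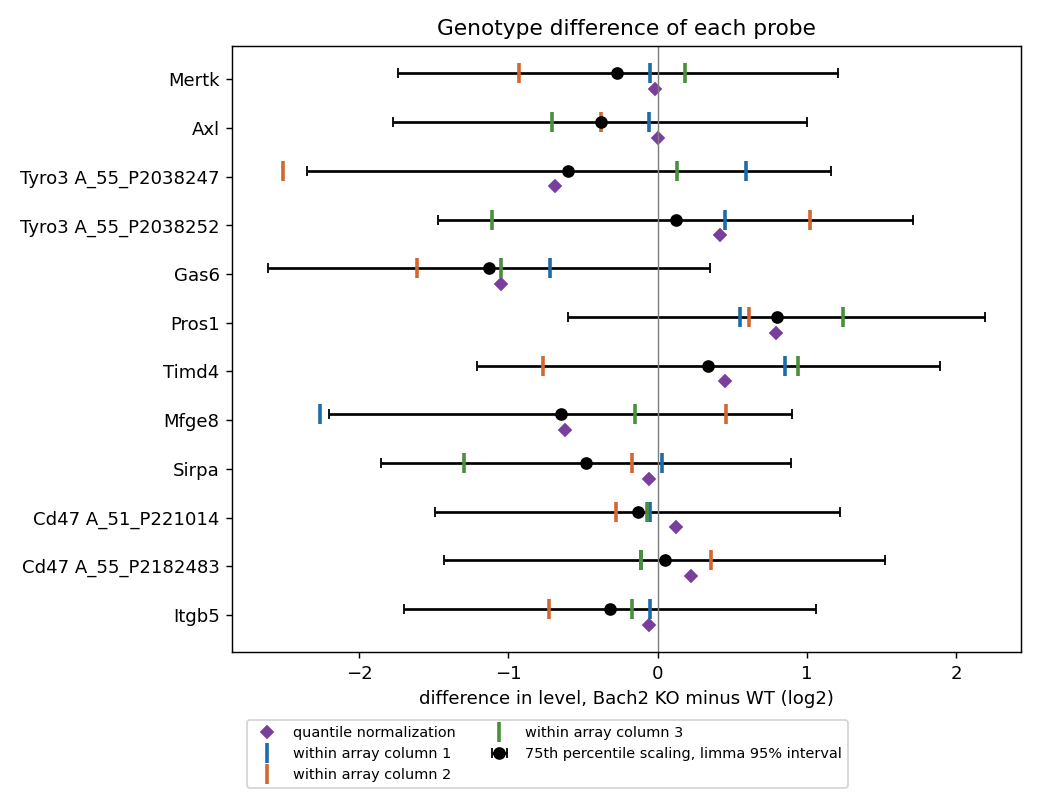
Difference in level between knockout and wild type for each of the 12 probes (horizontal axis, log2, knockout minus wild type). Black points and bars are the estimate and its 95% interval from limma, coloured ticks the difference within each array column, and diamonds the difference after quantile normalization. Every interval crosses 0. All ticks of Gas6, Axl, Itgb5 and Cd47 probe A_51_P221014 lie below 0 and all of Pros1 above it.

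Sirpa, the inhibitory receptor for CD47, was a bright probe on every array, and 0 spots were saturated. Its levels were 7.03, 7.37 and 6.49 in the knockout mice and 7.0, 7.54 and 7.79 in the wild-type mice. Knockout replicate 3 was the lowest and wild-type replicate 3 the highest, and these arrays also had the highest and the lowest 75th percentile. The unscaled signal was 202678, 194019 and 286087 in the knockout mice and 221398, 315550 and 192055 in the wild-type mice. That is a 1.64-fold range over the 6 arrays, while the 75th percentile ranged 3.67-fold and the brightest spike-in probe read 490962.6 to 578685.1. The difference was -0.48 ± 0.63 (SE), with a 95% interval of -1.85 to 0.89, and within columns 1, 2 and 3 it was 0.03, -0.17 and -1.30. After quantile normalization it was -0.06.

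Cd47 was measured by a pair of probes that agreed on the order of the array columns. Probe A_51_P221014 read 6.14, 5.60 and 5.37 in the knockout mice and 6.18, 5.88 and 5.45 in the wild-type mice. Probe A_55_P2182483 read 6.33, 5.56 and 5.09 in the knockout mice and 6.44, 5.20 and 5.19 in the wild-type mice. The mice of column 1 were highest by both probes in both genotypes. The differences between genotypes had opposite signs, at -0.13 ± 0.62 and 0.05 ± 0.67 (SE), with 95% intervals of -1.49 to 1.22 and -1.43 to 1.52.

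The mice in which Cd47 was highest also had the highest levels of erythroid genes such as Klf1. Klf1, an erythroid transcription factor, read 5.55, 4.38 and 1.33 in the knockout mice and 5.84, 1.51 and 1.94 in the wild-type mice. Mertk, Axl and Itgb5 were at or near their lowest in the same column 1 mice. The 5 erythroid markers measured, all well above background on every array, summed to between 207 and 663 in knockout and between 341 and 764 in wild type. The α-globin gene Hba-a1 did not follow the columns, at 8.62, 8.97 and 7.29 in knockout and 8.41, 8.27 and 9.38 in wild type. The part of erythroid RNA in the Cd47 values was not tested.

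**Figure D3:**
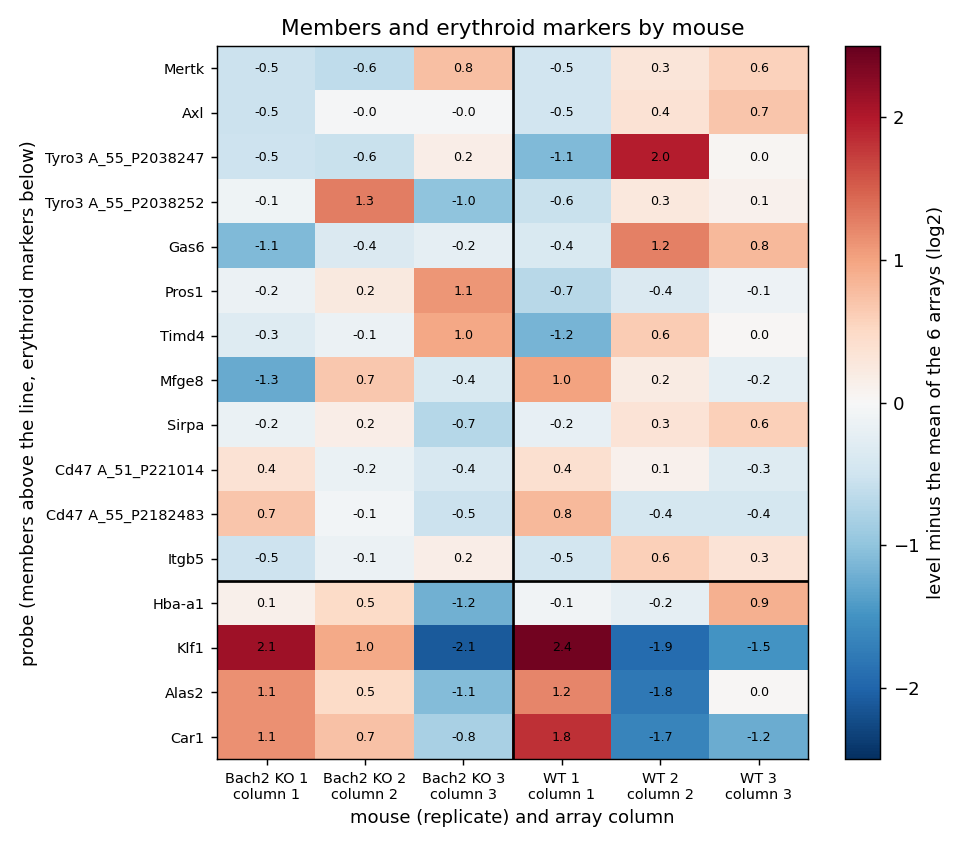
Level of each probe in each mouse minus its mean over the 6 arrays (colour and printed number, log2), for the 12 probes above the line and 4 erythroid markers below it. Columns are mice, knockout left of wild type, with the array column beneath. Cd47 and Klf1 are highest in knockout replicate 1 and wild-type replicate 1, where Mertk, Axl and Itgb5 are low.

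Mice that shared an array column resembled each other more than mice that shared a genotype. Over the 10 probes well above background on all arrays, the median absolute difference was 0.42 for the 3 pairs in 1 column, which differ in genotype, and 0.74 for the 6 pairs of 1 genotype. Over all 17343 such probes on the array the medians were 0.42 and 0.65. In column 1 the pair differed by a median of 0.08 over the 10 probes, against 0.29 over all such probes. With the array column as a block in the limma fit, 0 of the 12 probes passed.

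Likeness of pattern was measured as Pearson's r over the 6 arrays, among 9474 named genes well above background on all of them, which share the arrays and their columns. For Mertk the highest values belonged to Aplp2, Filip1l and Eif4ebp2 (r = 0.996 each). For Axl they belonged to Zfp523 (r = 0.994), Mocs3 (r = 0.993) and A530064D06Rik (r = 0.991), and for Timd4 to Flcn (r = 0.996), Chmp2b (r = 0.995) and Arsk (r = 0.993). Sirpa was most like Lamp1 (r = 0.992), Tyrobp (r = 0.988) and Fcer1g (r = 0.988). The signals of these 3 genes varied 1.70-fold, 1.55-fold and 1.91-fold over the arrays, beside 1.64-fold for Sirpa. With so many genes set against 6 points, values of this size are a description only.

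The wider pathway was read through 6 lists, each gene by its brightest probe. No gene of any list passed the test in either direction, and none had an unadjusted p under 0.05, against 160 of 19990 named genes. The median difference of all named genes was 0.04. Over 1 probe a gene well above background on at least 3 arrays (18397 probes), the median was -0.11 and 61.1% lay below 0. Most genes of the lists were likewise well above background. Among 22 other phosphatidylserine receptors and bridging molecules, 8 lay above 0 and 14 below, with a median of -0.25 (0.02 after quantile normalization). Among those well above background on at least 3 arrays, the smallest p values belonged to Cd93, a C-type lectin-like receptor, at 0.87 ± 0.66 (SE), and Trem2, a lipid receptor, at -1.06 ± 0.82 (SE), with 1 of 3 knockout arrays and 2 of 3 wild-type arrays above background. Among 18 measured genes of engulfment signalling, 7 lay above 0 and 11 below (median -0.13), and the median was 0.02 after quantile normalization. Dock1, an exchange factor for Rac, gave -0.61 ± 0.69 and the adaptor Gulp1, a dim probe, -0.57 ± 0.63 (SE).

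Among 8 genes of the CD47 and SIRPα signalling list, 3 lay above 0 and 5 below (median -0.09), and after quantile normalization 5 above and 3 below (median 0.09). The smallest p values belonged to the adaptor Grb2 at -0.45 ± 0.63 and the kinase Ptk2b at -0.33 ± 0.81 (SE). The phosphatases that SIRPα recruits gave -0.18 (Ptpn6, which lay above 0 after quantile normalization) and 0.15 (Ptpn11). Among 12 genes of LC3-associated phagocytosis, which coats the engulfed vesicle, 4 lay above 0 and 8 below (median -0.18, and -0.05 after quantile normalization). The lipid kinase Pik3c3 gave 0.52 ± 0.62 and the oxidase subunit Cyba -0.42 ± 0.65 (SE).

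The remaining lists bear on the TAM axis. Among 9 genes of ligand carboxylation, receptor shedding and TAM signalling, 6 lay above 0 and 3 below (median 0.25), also after quantile normalization (median 0.35). Ggcx, the carboxylase that modifies Gas6 and protein S, read -3.32, -2.06 and -3.45 in the knockout mice and -4.29, -3.71 and -3.61 in the wild-type mice. The genotypes did not overlap, as for 0.686% of all probes on the higher side, and the difference was 0.93 ± 0.66 (SE). The probe was well above background in 2 of 3 knockout mice and 1 of 3 wild-type mice.

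Of the list of nuclear receptors and related regulatory genes, all 8 genes measured lay below 0 in the knockout (median -0.40), but 5 of 8 did so after quantile normalization (median -0.29). Rxra, a shared partner of LXR and PPAR receptors, read -1.30, -0.80 and -0.57 in the knockout mice and -0.50, -0.07 and -0.27 in the wild-type mice. Rxrb, its relative, read 3.61, 4.25 and 4.16 in the knockout mice and 4.30, 4.92 and 4.42 in the wild-type mice. For both the genotypes did not overlap, as for 1.89% of all probes on the lower side, with differences of -0.61 ± 0.61 and -0.54 ± 0.61 (SE). After quantile normalization the genotypes overlapped for both. The LXR genes Nr1h3 and Nr1h2 gave -0.50 and -0.40. All of these had a limma adjusted p of 1.

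**Figure D4:**
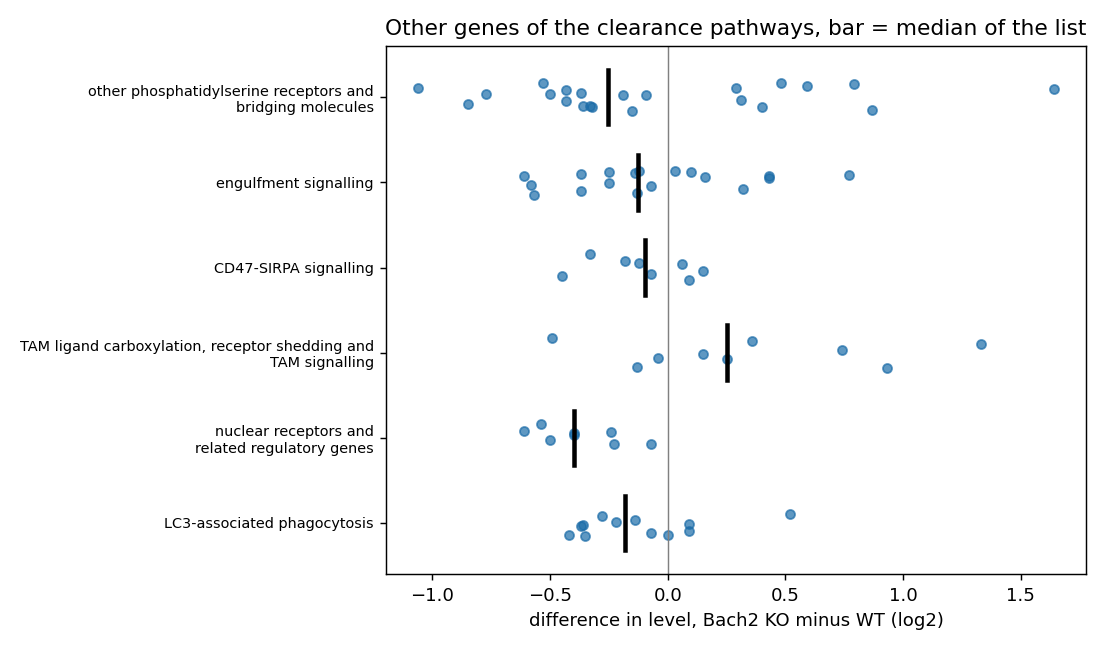
Difference in level between knockout and wild type (horizontal axis, log2) for each gene of the 6 pathway lists, 1 point a gene by its brightest probe, with vertical scatter for legibility and black bars at the medians. All 8 genes of the nuclear receptor list lie below 0 with a median of -0.40 (5 of 8 after quantile normalization), and the list of TAM ligand carboxylation, shedding and signalling has the highest median, 0.25.

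Markers of other cells that the sort could hold differed between the mice as well. Of 3 markers of marginal zone and metallophilic macrophages, Marco, a scavenger receptor, read 4.24, 4.96 and 3.97 in knockout and 6.34, 5.76 and 5.87 in wild type. Siglec1 overlapped, at -0.69, 0.08 and 0.79 in knockout and -0.72, 0.13 and 0.84 in wild type, and Cd209b was well above background in 1 of 3 mice of each genotype. The summed signal of the 3 genes, 17.5 to 32.3 in knockout and 55.4 to 81.6 in wild type, thus followed Marco. Marginal zone macrophages also carry Timd4. Summed scaled signals of 9 red pulp macrophage genes were 795 to 1070 in knockout and 984 to 1990 in wild type, overlapping at wild-type replicate 1. The lowest sum was on knockout replicate 3 and the highest on wild-type replicate 3, the arrays with the highest and the lowest 75th percentile. The part of these cells in the values of the 10 genes was not tested.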

How the data were processed

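RNA of sorted red pulp macrophages from 6 mice was amplified, labelled with Cy3 and hybridised to single-colour Agilent arrays, per the labels' protocols. The deposited scanner output gives an intensity per spot, made with Agilent Feature Extraction, for which the file headers give version 10.7.3.1 and the submitters' processing notes 9.1. The headers list background and detrending statistics for each array, and 75th percentiles differ between arrays.

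Spots with outlier flags and control spots were left out, and spots of 1 probe were averaged. Log2 processed intensity was scaled to each array's 75th percentile over unflagged spots. Every probe was kept, and 134 probes lack a value on at least 1 array. Accessions without version were matched to a RefSeq gene table of GRCm38.p6, which named 26413 probes (20018 genes). The table was used for names and promoter sequences, since the array design refers to an older build. The test was limma's moderated one (version 3.58.1, R 4.3.3), with p adjusted by Benjamini-Hochberg over 55681 probes and a threshold of 0.05. The fit was tested on simulated data.

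Groups follow the genotype in the labels, replicates are separate mice, and numbers were given in the order of the records. Members and lists were chosen with earlier results of these data known. Named genes were the 10 members, Bach2, the 2 genes with the smallest p among those well above background on at least 3 arrays in each list, and the 3 genes most like Mertk, Axl, Timd4 and Sirpa. Markers were named where a result turns on them, and Ptpn6, Ptpn11, Nr1h3 and Nr1h2 were named after their values were seen. Some genes that these rules name are not reported here. The alternatives were quantile normalization, median centring, normexp with an offset of 50 on the median signals (the mean signal was not used), a filter on dim probes, 1 probe a gene, the array column as a block and each mouse left out, and both mice whose labels share the tag P6 left out. The authors' deposited table of 279 probes holds none of the 12 member probes and was not used.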

Additional observations from a re-analysis of the deposited data

How the results depend on the processing

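Over 13 alternatives, 0 probes on the array passed limma's adjusted p of 0.05 in each, leaving out each mouse in turn included (0 to 0). At an unadjusted p under 0.05 limma gave 492 probes in the reported setting and 235 to 1452 in the alternatives, with 917 after quantile normalization, 1110 after median centring, 1383 after normexp correction, 310 with the filter on dim probes, 235 with 1 probe a gene, 529 with the array column as a block and 1452 without both mice tagged P6. The count of the 12 probes below 0 was 8 as reported, 6 with normexp correction, 7 with quantile normalization or median centring, and 8 to 9 without single mice. The median over all probes was 0.09 as reported, 0.0026 with quantile normalization, 0.24 with median centring, 0.47 without both mice tagged P6, and -0.31 (without wild-type replicate 2) to 0.35 (without knockout replicate 3) without single mice. The 12 probes gave 151 tested differences under the alternatives, with adjusted p values down to 0.53, and 14 of them changed sign. Gas6 stayed between -1.60 and -0.78, Pros1 between 0.44 and 1.08 and Mfge8 between -1.14 and -0.19. Cd47 probe A_51_P221014 read 0.12 with quantile normalization or normexp correction and 0.0058 with median centring, and -0.35 to 0.04 without single mice. Its other probe read -0.29 to 0.46 without single mice. Sirpa read 0.0029 with normexp correction, which was itself followed by quantile normalization. Timd4 read -0.16 to 0.74 without single mice, and the Tyro3 probes read -1.30 to 0.23 (A_55_P2038247) and -0.49 to 0.65 (A_55_P2038252).

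Replicate numbers were given in the order of the records and pair no mice. The array column, which holds 1 mouse of each genotype, was used as a block instead, and 0 probes passed. Signal over background limits what can be said of Tyro3. The cause of the changes of sign was not tested.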
